A study of Mus musculus with 12 samples.

Results

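The messenger RNAs described here encode the translation initiation factors (eIF) and elongation factors (eEF) of mouse liver, together with the kinases, binding proteins and methyltransferases whose gene symbols carry the same prefix. Members were the protein-coding genes of the expression table whose symbol starts with Eif or Eef followed by a digit. There were 65 such genes among 20712 protein-coding genes and 24537 genes in all. Of these, 54 encode factors proper, and 11 encode regulators, which are given apart. The regulators are the eIF2 alpha kinases Eif2ak1 to Eif2ak4, the eIF4E binding proteins Eif4ebp1 to Eif4ebp3 with Eif4enif1, and Eef2k, Eef2kmt and Eef1akmt1.

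RNA was sequenced from the livers of 12 male C57Bl/6J mice that were 6 weeks old at the start, were kept 1 to a cage, and carried no engineered allele according to the labels. Control (Con) mice ate ad libitum, and caloric restriction (CR) mice were given 30% less food than the Con mice ate. According to the study, CR mice got a fortified form of the Con diet, given daily at noon. Amount of food, diet formula and meal timing therefore cannot be told apart here. The study also describes labelling mice with heavy water for the 4 days before livers were taken. Livers were taken after 25 or 30 days, from 3 mice per diet and day. The 4 groups are called Con day 25, CR day 25, Con day 30 and CR day 30, and each mouse gave 1 library. The comparison asks how CR changes the transcripts of the translation machinery just before and at the slowing of hepatic protein synthesis that the study places between these days.

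Initiation begins when eIF2, carrying GTP and the initiator tRNA, joins the small ribosomal subunit with eIF1, eIF1A, eIF3 and eIF5. The cap-binding complex eIF4F, made of the cap-binding protein eIF4E, the scaffold eIF4G and the helicase eIF4A, then brings the subunit to the 5′ end of the mRNA. Elongation uses eEF1A to deliver aminoacyl-tRNA, eEF1B to recharge eEF1A with GTP, and eEF2 to move the ribosome along. Cells mostly set the pace of these steps by phosphorylating the proteins, through the eIF2 alpha kinases, the mTOR target 4E-BP and the eEF2 kinase, and none of these protein states was measured here. Many elongation factor and some initiation factor mRNAs start with a run of pyrimidines, the 5′ terminal oligopyrimidine (TOP) tract, by which their translation responds to mTOR and nutrients.

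Library depth, recovered from the steps between the lowest expression values, was 15748481 to 23344701 reads, and 78.1 to 84.26% of these lay on annotated exons. Values are FPKM, read counts scaled by exon length and by library size. Of the 65 members, 62 had 1 FPKM or more in 3 or more of the libraries. These were tested, among 10593 genes in all. The 3 members outside this limit were Eif4e1b, listed at 0 in every mouse, Eef1a2, at 0 to 0.156 FPKM, and Eif5a2, at 0.01 to 0.103 FPKM. The liver's defining hepatocyte genes were abundant. Alb, Apoa1, Ttr and Cps1 together summed to 35391 to 44194 FPKM in Con and 51616 to 62046 FPKM in CR livers at day 30. At day 25 the same sum was 42402 to 49283 FPKM in Con and 47994 to 51227 FPKM in CR livers. Among these 4 genes, Alb and Cps1 were called higher under CR at day 30, and none was called at day 25. Their part in the results below was not tested. In whole liver, fewer cells of a type and less of an mRNA per cell cannot be told apart.

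Sequence around the transcription start was searched for short patterns, and whether any of them acts in these livers was not tested. RefSeq start regions (250 bases before to 50 after the start, build GRCm38.p6, the same coordinates as mm10) were matched for 50 of the 65 members, in 46 of them at the start that the expression table uses. The first set holds the core of the interferon-stimulated response element, the DNA motif bound by interferon-regulated factors and spelled here as GAAANNGAAA on either strand. It is shown because Eif2ak2, which encodes the interferon-induced kinase PKR, was one of the members that fell most. The core lay in 4 of the 46 windows, compared with 3.44% of 32851 windows of all genes. Capitals mark the core, or its reverse complement in the Eif2s3x and Eif3a lines.
Eif2ak2, chr17:78882535-78882564, minus strand: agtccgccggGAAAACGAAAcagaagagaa
Eif2s1, chr12:78861850-78861879, plus strand: cctggagcaaGAAACAGAAActtacctctc
Eif2s3x, chrX:94212636-94212665, minus strand: tgccgagcatTTTCCTTTTCtctccgagca
Eif3a, chr19:60790885-60790914, minus strand: agaccgcaaaTTTCCCTTTCccactctgtg
In Eif2ak2 the core lay 19 to 28 bases into the transcript, whereas in Eif2s1 and Eif3a it lay well upstream of the start and in Eif2s3x across it.

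The second set shows the first bases of mRNAs of the TOP class, from 5 bases before the annotated start to 25 after it, because 3 mRNAs of this class, Eef1d, Eef2 and Eif3h, were called at day 30. Capitals mark a run of C or T that opens with C and goes on for at least 4 more pyrimidines.
Eef1a1, chr9:78481700-78481729, minus strand: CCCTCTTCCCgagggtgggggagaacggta
Eef2, chr10:81176626-81176655, plus strand: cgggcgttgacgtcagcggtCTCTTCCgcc
Eif3f, chr7:108934410-108934439, plus strand: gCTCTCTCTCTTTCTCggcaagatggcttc
Eif4b, chr15:102073768-102073797, plus strand: tcggacgccgcgccaCCCCCTCgcgctgct
Eef1b2, chr1:63176826-63176855, plus strand: gttccgccggaagtagccgaggccttgcgt
A run of this kind lay in 4 of the 5 TOP-class windows, and the Eef1b2 window had none. In Eef1a1 and Eif3f the run crossed the annotated start. In Eef2 it lay at bases 16 to 22 of the annotated transcript and in Eif4b at bases 11 to 17, so not at its first base. Such a run was also present in 19 of the 46 member windows, 41.3%, and in 34.6% of the windows of all genes, so these letters alone do not set the class apart. Eef1d, Eef1g, Eif3e and Eif3h also belong to the class.

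The members differed widely in abundance. The elongation factors were at the top, with a mean over the 12 mice of 566 FPKM for Eef1a1, which delivers aminoacyl-tRNA, and 425 FPKM for Eef2, the translocase. Eif5a, which helps the ribosome through difficult peptide bonds, followed at 137 FPKM. These were the 3 members above 100 FPKM. A further 26 lay between 20 and 100 FPKM, 23 between 5 and 20 FPKM and 10 below 5 FPKM. The median level of the 62 members was 17.6 FPKM, compared with 6.26 FPKM for all genes tested.

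**Figure D1:**
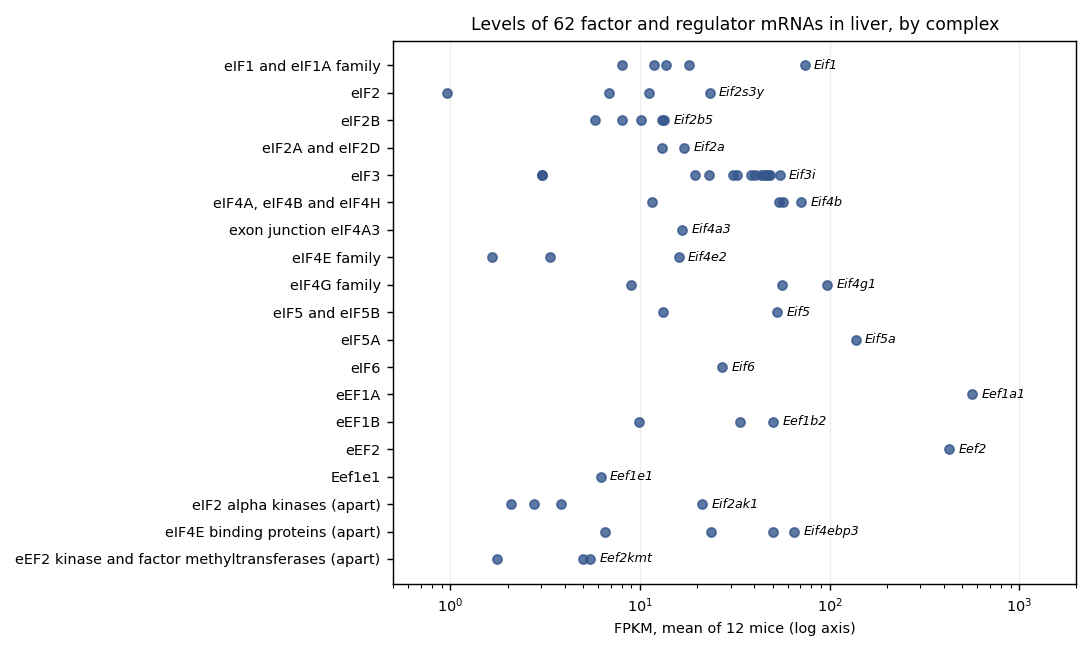
Mean FPKM over 12 mice (log axis) of the 62 members that were tested, 1 point per gene, in rows by complex with the most abundant gene of each row named. Eef1a1 at 566 FPKM and Eef2 at 425 FPKM lie above every initiation factor, while Eif4e lies at 3.37 FPKM.

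Levels differed widely within some complexes. Eif4e, the canonical cap-binding protein, stood at 3.37 FPKM, below its relative Eif4e2 at 16.0 FPKM and far below the scaffold Eif4g1 at 97.4 FPKM. Of the helicase pair, Eif4a2 was at 56.6 FPKM and Eif4a1 at 11.6 FPKM. Among the subunits of eIF2, Eif2s1 (eIF2 alpha) was at 6.82 FPKM and Eif2s2 (eIF2 beta) at 11.1 FPKM. The gamma subunit was represented by Eif2s3y on the Y chromosome at 23.3 FPKM and by its X-linked, near-identical copy Eif2s3x at 0.955 FPKM. Reads of these copies can be assigned to either gene, so their separate levels are uncertain. The same holds for Eif3j1 and Eif3j2, which share 25049 bases of the same locus and had almost the same value in each mouse, and for factors with processed pseudogenes. Elsewhere the eIF3 subunits were even, at 19.4 FPKM for Eif3m to 54.5 FPKM for Eif3i.

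The spread between mice of a group was small for most members. The median coefficient of variation over the 62 members was 10.6% in Con day 25, 8.9% in CR day 25, 7.44% in Con day 30 and 8.67% in CR day 30. Eif4ebp3 varied most in the Con groups, at 32.04% on day 25 and 52.4% on day 30, and Eif4e3 in the CR groups, at 33.6% and 24.3%.

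CR changed few of these transcripts, and most by little. At day 25, limma on log2(FPKM + 1), with Benjamini-Hochberg adjustment over all 10593 genes and a threshold of 0.1, called 4 of the 62 members. One was higher in CR, Eif4a2, against a background of 5.6% of all genes, and 3 were lower, Eif4g3, Eif2ak2 and Eif2s3y, against 9.34%. At day 30 it called 7 members. The 4 higher ones were Eif4ebp3, Eef1d, Eef2 and Eif3h, against 8.33% of all genes, and the 3 lower ones were Eif4g3, Eif2ak2 and Eef1akmt1, against 16.4%. In this fit, the share of members called was below that of all genes in each direction at each day. Only Eif4g3 and Eif2ak2 were called at both days.

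With the mice of both days in 1 fit, CR against Con with day as a covariate, 13 members were called. The 8 higher ones were Eif4ebp3, Eef1b2, Eif3i, Eef1d, Eif1, Eef2, Eif5a and Eif3h, against 14.5% of all genes, and the 5 lower ones were Eif4g3, Eif2ak2, Eif5, Eef1akmt1 and Eif2s3y, against 26.1%. Of these, 5 were called at neither day alone. How many members were called in each direction depended on how libraries were scaled. Under median-ratio scaling 9 members were higher and 2 lower at day 30, against 12.5% and 11.7% of all genes, and 16 were higher and 2 lower over both days, against 21% and 18.8%. With that scaling the share of members called higher was above that of all genes at day 30 and over both days. Under TPM scaling 8 were higher and 9 lower over both days, against 13.6% and 28.8%. The median log2 fold change of the members was 0.02 at day 25 and -0.02 at day 30, compared with -0.04 and -0.07 for all genes tested. At each day 59 of the 62 members changed by less than 0.5 on the log2 scale, and the 3 beyond it were Eif4g3, Eif2ak2 and Eif4ebp3. Most genes did the same, 91.2% of all genes tested at day 25 and 88.0% at day 30.

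**Figure D2:**
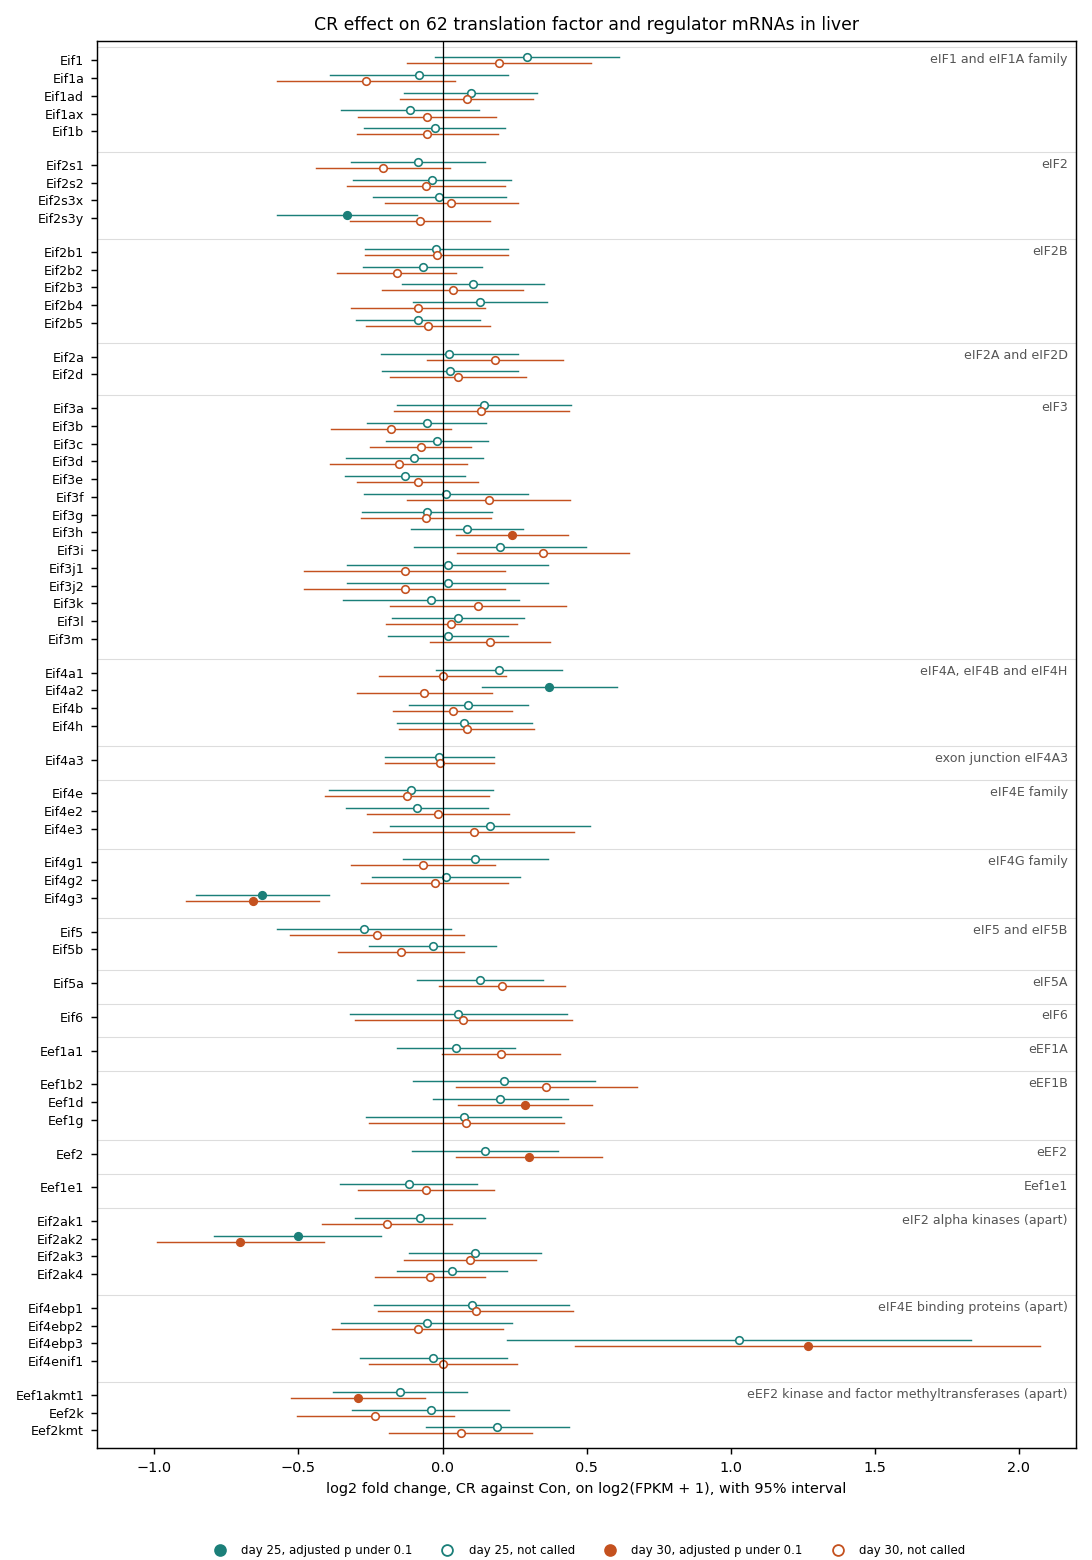
Log2 fold change of CR against Con on log2(FPKM + 1), with 95% intervals, for each of the 62 tested members in rows by complex, at day 25 (teal) and day 30 (orange). Filled points had an adjusted p under 0.1, and 59 of the 62 points lie within 0.5 of 0 at each day, with Eif4g3 and Eif2ak2 to the left and Eif4ebp3 to the right. Of all genes tested, 91.2% lay within that bound at day 25 and 88.0% at day 30.

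The separation of the mice was also counted. At day 25 all 3 CR mice lay above all 3 Con mice in 4 members, against 10.2% of all genes, and below them in 2, against 18%. At day 30 they lay above in 8 members, against 12.1%, and below in 7, against 24.3%. For 1 gene taken by itself, 3 mice against 3 allow no 2-sided exact permutation p below 0.1.

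No member's CR effect was called as different between the days by limma, where 0.00944% of all genes were called in either direction. At an unadjusted p below 0.05 (limma) there was 1 such member, Eif4a2, compared with 366 of all 10593 genes tested. With voom weights on the recovered read counts, limma also called 0 members. The smallest adjusted p among the members was 0.99955 (limma). Calls made at one day and not at the other are therefore not shown to differ.

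Eif4g3 gave the clearest change of all the initiation factors. It encodes eIF4GII, a second form of the scaffold on which the cap-binding protein, the helicase and eIF3 assemble, and lies at chr4:137993456-138207079 on the plus strand of mm10. Its level was 10.6, 10.5 and 10.7 FPKM in the Con mice and 6.40, 6.51 and 6.67 FPKM in the CR mice of day 25. At day 30 it was 10.6, 13.98 and 10.6 FPKM in Con and 6.33, 7.01 and 7.73 FPKM in CR mice. Every CR mouse was below every Con mouse on both days. Its log2 fold change was -0.63 ± 0.11 (SE, limma adjusted p = 0.00459) at day 25 and -0.66 ± 0.11 (limma adjusted p = 0.0019) at day 30. The call held with each mouse left out in turn and under every other setting of scaling, filter and model tried at the threshold of 0.1.

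The other members of the family were not called. Eif4g1, the main scaffold, stood at 85.4, 93.9 and 99.3 FPKM in Con and 106, 104 and 91.8 FPKM in CR mice at day 25. At day 30 it was at 99.8, 107 and 93.1 FPKM in Con and 82.5, 104 and 101 FPKM in CR mice. The groups overlapped on both days, with a 95% interval for the log2 fold change of -0.14 to 0.36 at day 25 and -0.32 to 0.18 at day 30. Eif4g2, a relative that does not bind eIF4E, had a log2 fold change of 0.01 at day 25 and -0.03 at day 30. Eif4g1 and Eif4g2 made up most of the summed eIF4G FPKM. The share of Eif4g3 in this sum was 6.33 to 7.72% in Con mice and 3.71 to 4.61% in CR mice.

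Of the remaining cap-complex genes only Eif4a2, a helicase subunit, was called. At day 25 it measured 54.2, 53.6 and 44.7 FPKM in Con and 72.3, 63.0 and 62.5 FPKM in CR mice, with every CR mouse above every Con mouse. The log2 fold change was 0.37 ± 0.11 (limma adjusted p = 0.0508). At day 30 the groups overlapped, at 54.9, 52.5 and 60.4 FPKM in Con and 51.1, 57.0 and 52.4 FPKM in CR mice, and the log2 fold change was -0.06 ± 0.11. The change between the days was -0.43 on the log2 scale (95% interval -0.76 to -0.10, unadjusted p = 0.0144), which did not pass over all genes. The day 25 call was lost without Con day 25 replicate 3 or CR day 25 replicate 1, where the largest adjusted p was 0.18 (limma), and with only the 2 groups compared in the fit, at 0.118 (limma). Eif4a2 hosts small nucleolar RNA genes and overlaps the opposite-strand gene Rfc4 by 185 bases, and strand was not stated for the counting.

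Eif4a1, Eif4b and Eif4h, the other helicase and its cofactors, had log2 fold changes of 0.08 to 0.20 at day 25 and 0.00 to 0.08 at day 30, none called. Eif4e was at 3.81, 2.68 and 3.37 FPKM in Con and 3.27, 2.98 and 2.63 FPKM in CR mice at day 25. The day 30 values were 3.47, 3.84 and 4.08 FPKM in Con and 2.64, 3.80 and 3.87 FPKM in CR mice. Its groups overlapped on both days, and the 95% intervals of the log2 fold change were -0.39 to 0.18 and -0.41 to 0.16. Eif4e2 and Eif4e3 were not called either. The exon junction helicase Eif4a3, a relative of the eIF4A pair with a role in splicing-marked mRNAs, had a log2 fold change of -0.01 on both days.

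The subunits of eIF2 and of its exchange factor eIF2B, on which the stress-responsive control of initiation acts, gave 1 call at either day, Eif2s3y. Eif2s1, the subunit that the eIF2 alpha kinases phosphorylate, was at 7.50, 6.13 and 6.42 FPKM in Con and 6.79, 6.33 and 5.60 FPKM in CR mice at day 25. By day 30 it stood at 6.62, 8.55 and 8.17 FPKM in Con and 6.59, 6.84 and 6.30 FPKM in CR mice, and the 95% interval of its log2 fold change was -0.44 to 0.03. All 5 eIF2B genes stayed within 0.16 of 0 on the log2 scale at both days, and none was called. Eif2a and Eif2d, which encode separate initiator-tRNA binding factors and not subunits of eIF2, were not called.

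Eif2s3y was called lower at day 25. Its values were 26.2, 22.0 and 24.9 FPKM in Con and 22.5, 17.8 and 17.5 FPKM in CR mice, so the groups overlapped by 1 mouse. The log2 fold change was -0.33 ± 0.11 (limma adjusted p = 0.0853). The call was lost without any of 4 mice, Con day 25 replicates 1 and 3 and CR day 25 replicates 2 and 3, with an adjusted p of up to 0.255 (limma). It was also lost with no filter on low values, under median-ratio, TPM or quantile scaling and with only the 2 groups in the fit, at up to 0.174 (limma). Over both days the call was lost under median-ratio scaling, at a limma adjusted p of 0.258, under quantile scaling and in 6 of the 12 fits that left out 1 mouse, among them those without Con day 30 replicate 3 or CR day 30 replicate 1. On day 30 its level was 24.1 to 26.5 FPKM in Con and 22.2 to 25.3 FPKM in CR mice, with a log2 fold change of -0.08. Its copy Eif2s3x was at 0.645 to 1.07 FPKM over all 12 mice.

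The eIF3 complex, the large scaffold that binds the small subunit, was represented by 14 genes with a median log2 fold change of 0.01 at day 25 and -0.01 at day 30. None was called at day 25, where 8 of the 14 had a positive and 6 a negative change. At day 30 Eif3h alone was called, at 46.4, 40.8 and 39.9 FPKM in Con and 51.1, 51.3 and 47.9 FPKM in CR mice. All CR mice were above all Con mice, with a log2 fold change of 0.24 ± 0.09 (limma adjusted p = 0.0866). This call was lost without Con day 30 replicates 2 or 3 or CR day 30 replicates 1 or 2, where the adjusted p reached 0.238 (limma), and under TPM scaling or with only the day 30 mice in the fit, at up to 0.167 (limma). Eif3m also had every CR mouse above every Con mouse at day 30, while Eif3b and Eif3d had every CR mouse below. Their log2 fold changes were 0.16, -0.18 and -0.15, and none was called. Of all genes, 12.1% lay fully above and 24.3% fully below at that day.

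Eif3i, another subunit, was at 50.9, 48.0 and 42.1 FPKM in Con and 67.0, 64.3 and 50.1 FPKM in CR mice at day 30, and 1 CR mouse fell within the Con range. Its log2 fold change of 0.35 ± 0.14 had an adjusted p of 0.101 (limma) at day 30, and over both days the change was 0.27 (limma adjusted p = 0.0431). Eif3h also passed over both days, at 0.16 (limma adjusted p = 0.0653) and lost that call without any of the same 4 mice and under quantile scaling, at 0.123 (limma). Summed over the complex, counting the Eif3j locus once, the level was 480 ± 35.1 FPKM (SD, n = 3) in Con and 487 ± 20.2 FPKM in CR mice at day 25. At day 30 it was 450 ± 19.8 FPKM in Con and 474 ± 22.6 FPKM in CR mice, within the spread of the mice on both days.

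Of the remaining initiation factors, Eif1, Eif5 and Eif5a were called over both days and at neither day alone, except that Eif1 and Eif5 were called at day 25 with mice blocked by replicate number (limma adjusted p of 0.0826 and 0.0823). Eif1, which guards start-codon choice, was at 56.2, 77.3 and 74.0 FPKM in Con and 74.7, 85.6 and 93.0 FPKM in CR mice at day 25. Its day 30 values were 70.4, 61.0 and 65.2 FPKM in Con and 88.5, 74.1 and 64.6 FPKM in CR mice, and over both days its log2 fold change was 0.24 (limma adjusted p = 0.0803). Eif5, which triggers GTP hydrolysis by eIF2 at the start codon, went the other way. It was at 62.4, 50.02 and 52.3 FPKM in Con and 52.1, 38.5 and 45.6 FPKM in CR mice at day 25. The day 30 values were 56.5, 66.7 and 57.9 FPKM in Con and 44.0, 56.7 and 53.8 FPKM in CR mice. The groups overlapped on both days, and over both days the change was -0.25 (limma adjusted p = 0.0577).

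Eif5a was at 122, 135 and 129 FPKM in Con and 136, 150 and 137 FPKM in CR mice at day 25, with no overlap. By day 30 it stood at 127, 138 and 123 FPKM in Con and 153, 161 and 134 FPKM in CR mice, with 1 CR mouse inside the Con range. Over both days the log2 fold change was 0.17 (limma adjusted p = 0.0751). These calls were thin: the Eif1 and Eif5a calls were each lost in 7 of the 12 fits that left out 1 mouse, and the Eif5 call in 4. For each of the 3 genes these included the fits without Con day 25 replicate 1, CR day 25 replicate 2 and CR day 30 replicate 1. The others were CR day 25 replicate 3, Con day 30 replicates 2 and 3 and CR day 30 replicate 2 for Eif1, Con day 30 replicate 2 for Eif5, and Con day 25 replicate 3, Con day 30 replicates 1 and 3 and CR day 30 replicate 2 for Eif5a. The largest adjusted p in these fits was 0.172 for Eif1, 0.128 for Eif5 and 0.156 for Eif5a (limma). The Eif1 call was also lost with no filter on low values, at 0.115, the Eif5 call under median-ratio scaling, at 0.17, and the Eif5a call under quantile scaling, at 0.192 (limma). Eif6, which keeps ribosomal subunits apart, had log2 fold changes of 0.05 and 0.07 and was not called.

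Eef2 and Eef1d were higher in CR than in Con livers at day 30, by 1.23-fold each in group means. The other elongation factors did not pass the test at either day. All 5 tested genes of eEF1A, eEF1B and eEF2 had positive log2 fold changes at both days, with a median of 0.15 at day 25 and 0.29 at day 30, compared with -0.04 and -0.07 for all genes. None was called at day 25 by limma, 2 were called at day 30, Eef2 and Eef1d, and 3 over both days, Eef1b2, Eef1d and Eef2. Of all genes, 5.6% were called higher at day 25, 8.33% at day 30 and 14.5% over both days, and 5 genes are too few for a comparison with these shares. At day 25, 0 of these 5 had an unadjusted p below 0.05 (limma), compared with 2635 of all 10593 genes tested.

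Eef2 was at 374, 477 and 449 FPKM in Con and 461, 490 and 484 FPKM in CR mice at day 25, with 1 Con mouse inside the CR range. On day 30 its level was 386, 364 and 311 FPKM in Con and 449, 426 and 428 FPKM in CR mice, with no overlap. The log2 fold change was 0.15 ± 0.12 (limma adjusted p = 0.473) at day 25 and 0.30 ± 0.12 (limma adjusted p = 0.0984) at day 30. Con mice themselves were lower at day 30, at 354 ± 39.1 FPKM (SD, n = 3), than at day 25, at 434 ± 53.0 FPKM, while CR mice were at 478 ± 15.4 and 434 ± 12.7 FPKM.

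Eef1d and Eef1b2 encode the delta and beta exchange subunits that recharge eEF1A. Eef1d was at 28.9, 29.6 and 27.4 FPKM in Con and 37.7, 35.9 and 32.1 FPKM in CR mice at day 30, with no overlap and a log2 fold change of 0.29 ± 0.11 (limma adjusted p = 0.0871). Eef1b2 was at 44.3, 45.6 and 39.0 FPKM in Con and 60.2, 61.6 and 45.7 FPKM in CR mice at day 30. Its groups did not overlap, but the closest mice differed by less than 0.1 FPKM, and the change of 0.36 ± 0.15 had a limma adjusted p of 0.109. At day 25 Eef1d was at 28.2, 35.2 and 34.2 FPKM in Con and 34.5, 39.7 and 38.1 FPKM in CR mice, and Eef1b2 at 40.4 to 56.8 FPKM in Con and 49.9 to 57.9 FPKM in CR mice. The groups overlapped for both genes at that day. From day 25 to day 30 the mean of Eef1d went from 32.5 to 28.7 FPKM in Con and from 37.4 to 35.3 FPKM in CR mice. Eef1g, the gamma subunit, was not called, at 0.07 and 0.08, and its day 30 value turned negative without Con day 30 replicate 3 or CR day 30 replicate 2.

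Eef1a1, the most abundant member, was at 544, 567 and 603 FPKM in Con and 594, 593 and 581 FPKM in CR mice at day 25, with overlap. At day 30 it was at 507, 552 and 481 FPKM in Con and 596, 598 and 575 FPKM in CR mice. There the groups did not overlap, and the change of 0.20 ± 0.09 had a limma adjusted p of 0.16. Summed, the eEF1A, eEF1B and eEF2 genes held 1095 ± 85.5 FPKM (SD, n = 3) in Con and 1171 ± 21.4 FPKM in CR mice at day 25. At day 30 they held 948 ± 72.8 FPKM in Con and 1125 ± 32.7 FPKM in CR mice, and no CR mouse lay inside the Con range at either day.

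These changes were close to the threshold. For both genes the day 30 call was lost in 5 of the 6 fits that left out 1 mouse, at adjusted p values of up to 0.253 for Eef1d and 0.305 for Eef2 (limma). It was kept without CR day 30 replicate 3 for Eef1d and without Con day 30 replicate 1 for Eef2. With only the day 30 mice in the fit, neither gene was called. The day 30 call of Eef2 was also lost with no filter on low values and under quantile scaling, where the adjusted p was 0.138 (limma). Over both days, Eef1d and Eef1b2 kept their calls without any 1 mouse, and Eef2 lost its call without Con day 25 replicate 1, Con day 30 replicate 3 or CR day 30 replicate 1, and under quantile scaling, at an adjusted p of 0.144 (limma). Marker sums of several cell types also had no overlap between the diets at day 30. This held for the hepatocyte sum given above. The 5 sinusoidal endothelial genes summed to 28.96 to 31.9 FPKM in Con and 38.03 to 43.06 FPKM in CR mice, with 2 called higher, and the 5 stellate cell and fibroblast genes to 45.2 to 54.7 FPKM in Con and 61.98 to 78.6 FPKM in CR mice, with 2 called higher. Their part in the elongation factor values was not tested. Of the 9 members of the TOP class, 8 had a positive change at each day, none was called at day 25, and 3 were called at day 30, Eef1d, Eef2 and Eif3h, against 5.6% of all genes called higher at day 25 and 8.33% at day 30. The class had a median of 0.09 at day 25 and 0.20 at day 30. It includes the 5 elongation factor genes described above, and Eef1d and Eef2 are among these. Its remaining genes changed at day 30 by -0.09 (Eif3e), 0.04 (Eif4b), 0.16 (Eif3f) and 0.24 (Eif3h). A class of 9 genes is too small for a comparison with the shares of all genes.

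**Figure D3:**
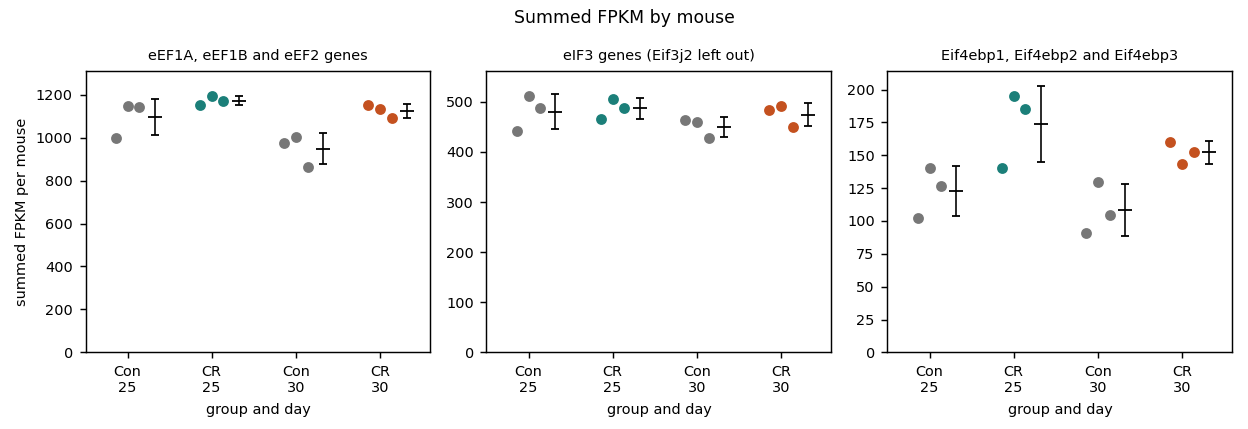
Summed FPKM per mouse for the elongation factor genes, the eIF3 genes and the 3 eIF4E binding protein genes, with 3 mice per group as points and the group mean ± SD as bars. At day 30 the elongation sum was 865 to 1002 FPKM in Con and 1089 to 1153 FPKM in CR mice, while the eIF3 sums overlapped.

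Among the regulators, Eif4ebp3 had the largest change of all members. It encodes a protein of the 4E-BP family, which holds eIF4E away from eIF4G when mTOR signalling is low. It was at 30.2, 59.0 and 53.4 FPKM in Con and 63.0, 112 and 119 FPKM in CR mice at day 25. The day 30 values were 17.5, 54.6 and 34.3 FPKM in Con and 99.7, 68.3 and 71.8 FPKM in CR mice. No CR mouse lay within the Con range of its day, but Con mice differed among themselves by up to 3.12-fold. The group means stood 2.06-fold apart at day 25 and 2.25-fold at day 30.

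The log2 fold change of Eif4ebp3 was 1.03 ± 0.37 (limma adjusted p = 0.107) at day 25 and 1.27 ± 0.37 (limma adjusted p = 0.0362) at day 30. Over both days it was 1.15 ± 0.26 (limma adjusted p = 0.00493), with a call in each of the 12 fits that left out 1 mouse. The day 30 call was lost without Con day 30 replicate 1 or CR day 30 replicate 1, where the largest adjusted p was 0.135 (limma). Once mice were blocked by replicate number, the day 25 change was called at a limma adjusted p of 0.00256, where same-numbered mice of both diets deviated together.

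Under the same block, 7 members were called at day 25 in place of 4, 3 higher, against 8.4% of all genes, and 4 lower, against 11.2%. The additional ones were Eif4ebp3, Eif1, with a limma adjusted p of 0.0826, and Eif5, with 0.0823. The mRNAs of the other 4E-BPs were not called. Eif4ebp1 was at 19.9, 27.3 and 24.1 FPKM in Con and 21.3, 33.4 and 22.9 FPKM in CR mice at day 25. By day 30 it stood at 22.1, 20.6 and 21.5 FPKM in Con and 21.5, 25.3 and 23.0 FPKM in CR mice. Its groups overlapped, and the 95% interval of the log2 fold change over both days was -0.12 to 0.34.

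Eif4ebp2 was at 51.9, 53.9 and 48.9 FPKM in Con and 56.4, 49.7 and 43.5 FPKM in CR mice at day 25. On day 30 its level was 51.2, 54.2 and 49.1 FPKM in Con and 39.3, 49.8 and 58.0 FPKM in CR mice, with an interval of -0.27 to 0.13 over both days. Eif4ebp3 therefore made up 29.7 to 42.2% of the summed FPKM of these 3 genes in Con and 44.8 to 64.1% in CR mice at day 25. At day 30 the shares were 19.3 to 42.2% and 47.0 to 62.1%. Eif4enif1, the shuttling protein that carries eIF4E into the nucleus, was not called, at -0.03 and 0.00.

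**Figure D4:**
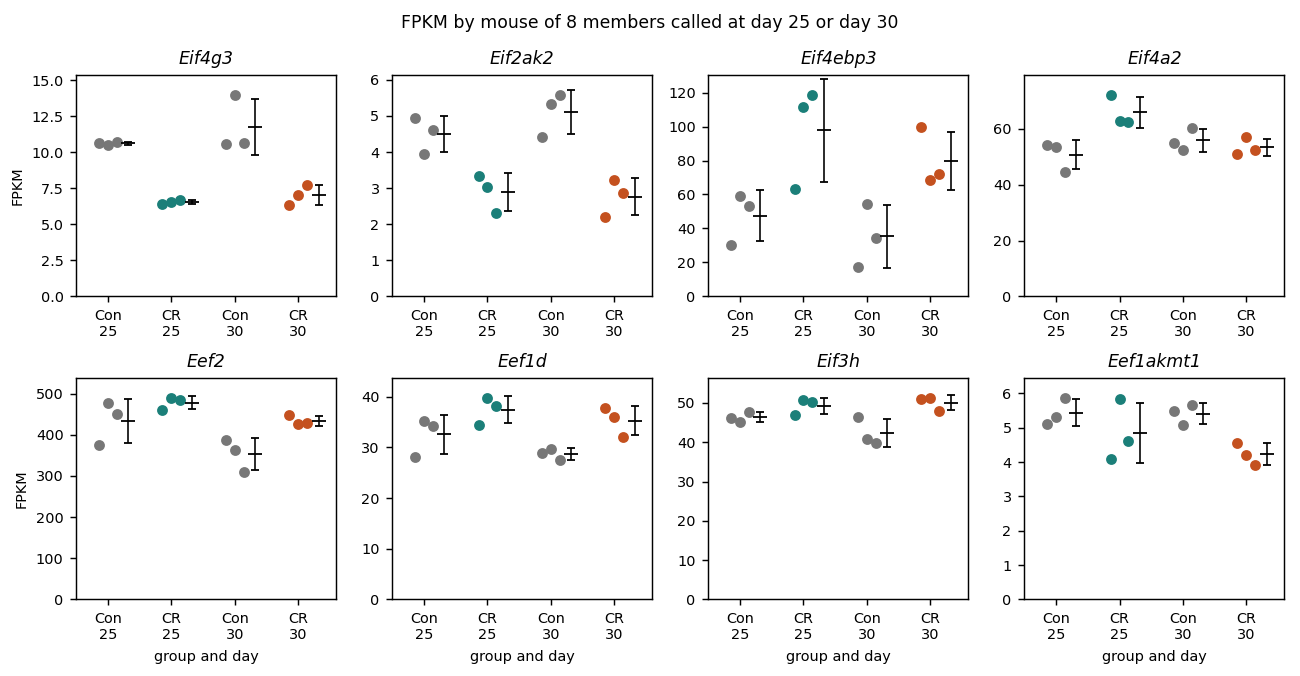
FPKM in each mouse of 8 members called at day 25 or day 30, with 3 mice per group as points and the group mean ± SD as bars, on linear axes from 0. Eif4g3 and Eif2ak2 are lower in every CR mouse at both days, Eif4ebp3 is higher in every CR mouse, and Eif4a2 separates the diets at day 25 and not at day 30.

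Of the eIF2 alpha kinases, which slow initiation under stress, Eif2ak2 fell and the others were not called. Eif2ak2 encodes PKR, activated by double-stranded RNA, and lies at chr17:78852550-78882572 on the minus strand of mm10. It was at 4.94, 3.95 and 4.60 FPKM in Con and 3.34, 3.04 and 2.31 FPKM in CR mice at day 25. Its day 30 values were 4.41, 5.32 and 5.59 FPKM in Con and 2.199, 3.22 and 2.87 FPKM in CR mice. Every CR mouse was below every Con mouse on both days. Its log2 fold change was -0.50 ± 0.13 (limma adjusted p = 0.0364) at day 25 and -0.70 ± 0.13 (limma adjusted p = 0.00477) at day 30. Without CR day 25 replicate 3 or Con day 25 replicate 1 the day 25 call was lost, at an adjusted p of up to 0.135 (limma), and the day 30 call held in each such fit.

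Markers of immune cells moved in part beside this gene. The 6 Kupffer cell and macrophage genes summed to 34.4 to 56.5 FPKM in Con and 22.1 to 29.1 FPKM in CR mice at day 25, with 3 of the 6 called lower. At day 30 their sums overlapped, at 30.1 to 44.6 FPKM in Con and 30.3 to 40.1 FPKM in CR mice, and 1 of the 6 was called higher. The 4 lymphocyte genes summed to 0.24 to 1.32 FPKM over all mice. The 2 neutrophil genes summed to 0.492 to 0.767 FPKM in Con and 0 to 0.123 FPKM in CR mice at day 25. At day 30 the neutrophil sums overlapped, at 0.333 to 1.387 FPKM in Con and 0 to 0.764 FPKM in CR mice. No lymphocyte or neutrophil gene passed the limit for testing. The part of these cells in the Eif2ak2 values was not tested.

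Eif2ak1, the heme-regulated kinase and the most abundant of the 4, was at 21.3, 23.6 and 21.7 FPKM in Con and 21.6, 23.2 and 18.4 FPKM in CR mice at day 25. The day 30 values were 21.8, 23.5 and 21.7 FPKM in Con and 17.7, 21.2 and 19.5 FPKM in CR mice, without overlap but with a limma adjusted p of 0.22. Eif2ak3 encodes PERK, the kinase of endoplasmic reticulum stress, and was at 2.67, 2.65 and 2.41 FPKM in Con and 3.10, 2.87 and 2.64 FPKM in CR mice at day 25. By day 30 it stood at 2.41, 2.61 and 3.03 FPKM in Con and 2.42, 3.13 and 3.301 FPKM in CR mice.

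Eif2ak4 encodes GCN2, the kinase that senses uncharged tRNA. It was at 2.02, 2.18 and 1.80 FPKM in Con and 2.16, 2.23 and 1.82 FPKM in CR mice at day 25. On day 30 its level was 2.13, 2.21 and 2.26 FPKM in Con and 1.98, 2.196 and 2.15 FPKM in CR mice, with a 95% interval of -0.23 to 0.15 for the log2 fold change. Eif2ak1 held 66.6 to 74.0% of the summed kinase FPKM. The share of Eif2ak2 in this sum was 12.2 to 17.2% in Con and 9.06 to 11.1% in CR mice.

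On the elongation side, Eef2k, the kinase that inactivates eEF2, was at 1.39, 1.67 and 1.57 FPKM in Con and 1.53, 1.94 and 1.02 FPKM in CR mice at day 25. At day 30 it was at 2.21, 2.10 and 2.49 FPKM in Con and 1.697, 1.92 and 1.71 FPKM in CR mice, with no overlap and a log2 fold change of -0.23 ± 0.12 (limma adjusted p = 0.221). Eef1akmt1, a methyltransferase acting on eEF1A, was at 5.48, 5.09 and 5.67 FPKM in Con and 4.55, 4.22 and 3.93 FPKM in CR mice at day 30. Its log2 fold change was -0.29 ± 0.11 (limma adjusted p = 0.0806). This call was lost without any 1 of the 6 mice of that day, with no filter on low values, under median-ratio or quantile scaling and with voom, at up to 0.239 (limma). Over both days the call was lost under median-ratio and quantile scaling, at up to 0.17 (limma). At day 25 it was at 5.11, 5.32 and 5.87 FPKM in Con and 4.10, 5.82 and 4.62 FPKM in CR mice, with overlap. Eef2kmt, which methylates eEF2, was not called.

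A list of 53 further genes covered termination, poly(A) binding, initiation partners, the kinases and phosphatase subunits that act on the factors, modifying enzymes, selenocysteine insertion and mitochondrial translation, and 52 of them were tested. At day 25, 1 was called higher and 7 lower, against 5.6% and 9.34% of all genes, and at day 30, 1 was called higher and 15 lower, against 8.33% and 16.4%. The share called lower was above that of all genes at both days, and the share called higher was below it. The list was chosen with earlier results of these data known. The median log2 fold change of the 52 genes was -0.02 at day 25 and -0.09 at day 30, compared with -0.04 and -0.07 for all genes tested. Whether calls in this list hold with a mouse left out or under other settings was not examined.

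**Figure D5:**
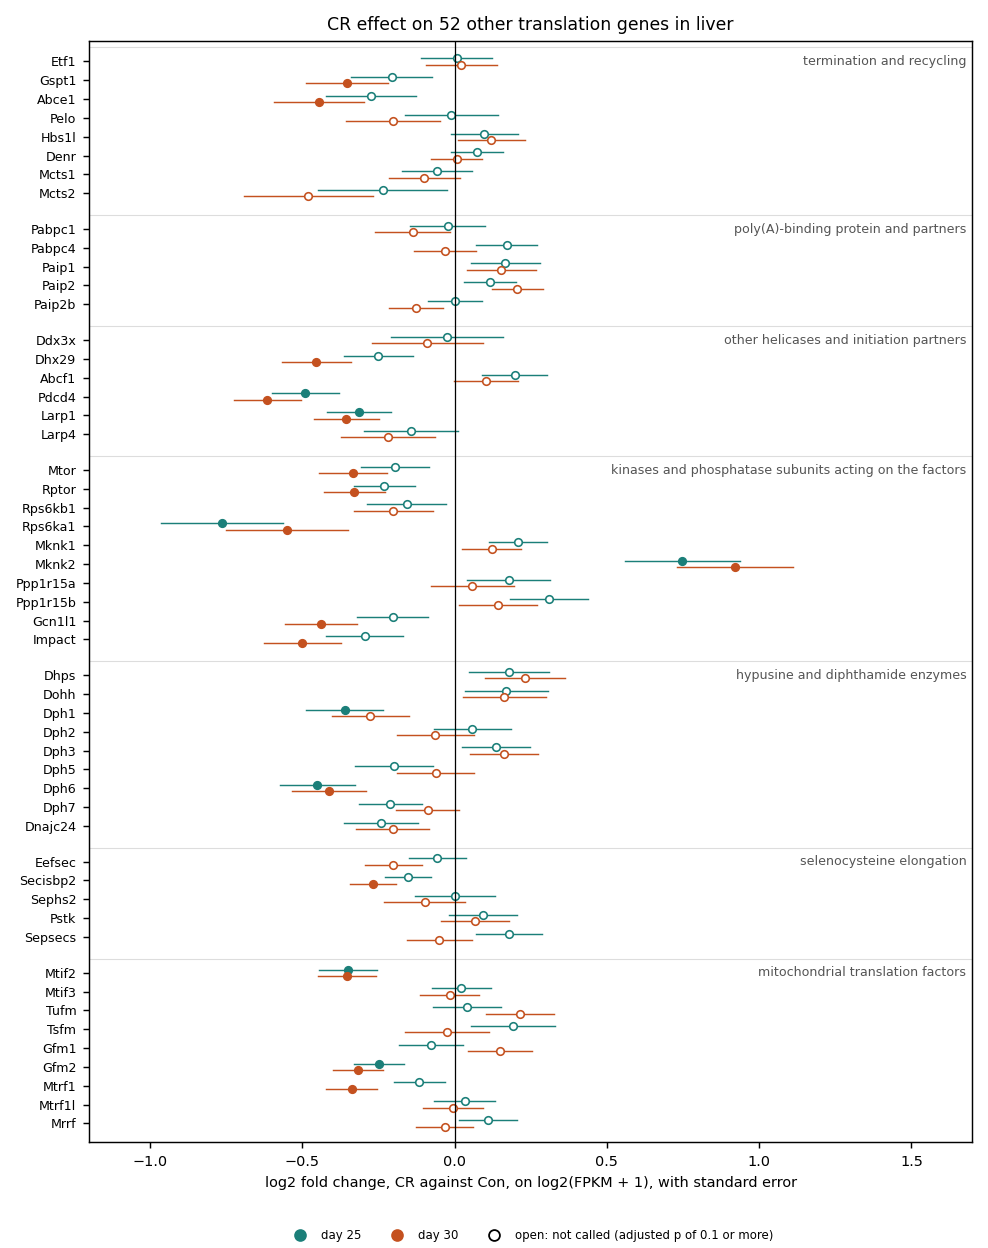
Log2 fold change of CR against Con on log2(FPKM + 1), with standard errors, for the 52 tested genes of the wider translation list, at day 25 (teal) and day 30 (orange). Filled points had an adjusted p under 0.1, and Mknk2 is the single filled point to the right of 0.

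Mknk2, which encodes a kinase that phosphorylates eIF4E, was the gene called higher at both days. It rose from 39.3 ± 10.1 FPKM (SD, n = 3) to 65.2 ± 4.48 FPKM at day 25 and from 36.2 ± 6.60 to 69.1 ± 9.79 FPKM at day 30. Its log2 fold change was 0.75 (limma adjusted p = 0.0296) and 0.92 (limma adjusted p = 0.00682). In the same group of kinases, Rps6ka1, encoding a ribosomal S6 kinase of the RSK family, fell at both days, by 0.76 and 0.55 on the log2 scale. Its limma adjusted p was 0.0347 and 0.0812. Gcn1l1, encoding the partner of GCN2, and Impact, its inhibitor, fell at day 30 by 0.44 and 0.50. Mtor and Rptor, subunits of mTOR complex 1, fell at day 30 by 0.33 each (limma adjusted p of 0.0617 and 0.0426).

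Among the initiation partners, Pdcd4, which encodes an inhibitor of the eIF4A helicase, went from 43.9 ± 3.50 to 31.0 ± 2.75 FPKM at day 25 and from 57.1 ± 6.69 to 36.8 ± 2.00 FPKM at day 30. Its limma adjusted p was 0.0164 and 0.00339. Larp1, which binds TOP mRNAs, fell at both days by 0.31 and 0.35, and the helicase gene Dhx29 at day 30 by 0.45. The limma adjusted p of Larp1 was 0.0837 at day 25 and 0.0381 at day 30. In termination and recycling, Abce1, which splits ribosomes, and Gspt1, encoding the release factor eRF3, fell at day 30 by 0.44 and 0.35. Their limma adjusted p was 0.0591 and 0.0906. Mcts2 changed by -0.48 at day 30 and was not called.

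In mitochondrial translation, which uses its own factors, Mtif2 fell by 0.35 at each day, Gfm2 by 0.25 at day 25 and then 0.32, and Mtrf1 at day 30 by 0.34. The day 25 call of Gfm2 had a limma adjusted p of 0.0772. Dph6, an enzyme of the diphthamide modification carried by eEF2, fell at both days, by 0.45 and 0.41. Dph1, of the same pathway, was called at day 25, at -0.36 (limma adjusted p = 0.0994). Secisbp2, which directs selenocysteine insertion, fell at day 30 by 0.27. None of the 5 genes of poly(A)-binding protein and its partners was called at either day by limma, and Paip2 at day 30 was the 1 value with an unadjusted p below 0.05. Of all 10593 genes tested, 2635 at day 25 and 3353 at day 30 had such a value (limma).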

How the data were processed

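Total RNA of 12 livers was sequenced by the authors as 100 bp paired-end reads on a single Illumina lane, 1 library per mouse, with strand not stated. Per the labels, CASAVA 1.8.2, FastQC, BWA, the build mm10 and DESeq2 were used. The file header shows that the deposited FPKM values came from HOMER, which counted exon reads over 1 transcript model per gene and scaled the counts by its length and the library size. Such values can share reads between near-identical copies. The authors' length column was used to recover read counts, and all of the 1500 low values checked per library came out whole.

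Groups were taken from the labels. The 3 Con day 30 columns could be tied to that group but not to single samples, so their replicate numbers only follow column order. Members were chosen by symbol, and the members, the complexes, the pathway, marker and TOP lists and the tests were chosen with earlier results of these data known. The test was limma (version 3.58.1, under R 4.3.3) on log2(FPKM + 1), with an empirical Bayes trend, 4 groups in 1 fit, genes of at least 1 FPKM in at least 3 libraries, and 2-sided p-values adjusted over all genes by the Benjamini-Hochberg method. A gene was called at an adjusted p below 0.1. A fold change on this scale understates that of genes with low values. The separate samples are separate mice. The effect over both days used day as a covariate, and the difference between days was a contrast. The script was tested on simulated data.

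At day 25 the labels number the mice of both diets, and same-numbered mice deviated together from their group means (correlations over genes of 0.368, 0.306 and 0.106, compared with -0.287 to 0.0134 for other pairs), so a replicate block was fitted as an alternative. Other alternatives were a pseudocount of 0.1, no filter, median-ratio, TPM and quantile scaling, no trend, a fit of only the groups compared, stricter thresholds, voom on the recovered reads, and leaving out each mouse. Values in every mouse are given for members called at either day or over both days and for a set of named regulators and core factors. Of the wider list, up to 3 genes per group were named by size of change. The group of kinases and phosphatase subunits was an exception, where every gene called at either day was named. Promoter sequences were searched in Python 3.11.15.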

Additional observations from a re-analysis of the deposited data

How the results depend on the processing

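Of 1608 values of 24 single members under the alternatives, none changed sign while called. Of these values, 405 belonged to calls of the main fit, of which 319 kept the call and 86 lost it. Among the 1203 values not called in the main fit, 29 gained a call. Eif4g3 was called at both days in every fit at the threshold of 0.1. Counts of members moved more. With median-ratio scaling, 2 members were higher at day 25. At day 30, 9 members were higher and 11 in all were called, and over both days 16 were higher and 2 lower. Of the 10593 genes tested, that scaling called 1728 at day 25, 2557 at day 30 and 4224 over both days, in either direction. With TPM scaling, 9 members were lower over both days, against 28.8% of all genes. With voom on the recovered reads, 2 members were higher at day 25, where 1587 genes were called in either direction. With only the 2 groups compared in the fit, 1 member was higher and 4 in all were called at day 30, where 2317 genes were called. At an adjusted p below 0.05 (limma), 0 members were higher and 2 in all called at day 25, and 1 higher and 3 in all at day 30. Over both days 4 were higher, 3 lower and 7 called in all. Of all genes, 969, 1740 and 3332 passed that threshold in these comparisons. With an adjusted p below 0.1 and at least a 2-fold change, 0 members were called at day 25 in either direction. There 1 was higher and 0 lower at day 30, and 1 was higher and 0 lower over both days. Of all genes, 157, 234 and 176 passed both limits in these comparisons. The cause of these differences was not tested, except that stricter thresholds leave fewer calls by construction.

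With the replicate block at day 25, 3 members were higher, against 8.4% of all genes, and 7 were called in all, against 2077 of all genes. No paired analysis was possible at day 30 because the Con day 30 columns carry no number that the labels share.

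Leaving out 1 mouse gave 2 to 4 member calls at day 25 (0 to 1 higher, 1 to 3 lower), 2 to 7 at day 30 (0 to 5 higher, 2 to 3 lower) and 7 to 15 over both days (4 to 10 higher, 3 to 6 lower). Among all genes these fits called 893 to 1374 at day 25 and 1497 to 2292 at day 30. Over both days they called 3698 to 4198. The lowest member counts came without Con day 25 replicates 1 or 3 or CR day 25 replicate 3 at day 25, and without CR day 30 replicate 1 at day 30 and over both days. At day 30, 3 members were called without Con day 30 replicates 2 or 3 or CR day 30 replicate 2, and over both days 8 without Con day 30 replicate 3. Members at a few FPKM or less, such as Eif2s3x, rest on the fewest reads. Calls for the difference between days were 0 in every alternative.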
